A study of Mus musculus with 12 samples.

Results

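Late CMDMs, the Ly6CloPD-L2hi classical monocyte-derived macrophages of inflamed skin, were compared with early CMDMs, their Ly6ChiPD-L2hi counterparts, across all genes. The comparison rests on the 3 late and 3 early CMDM libraries, 6 of the 12 libraries of the series, which were chosen by their labelled cell subtype and not by any measured value. Of 37775 genes in the count table, 22118 had enough counts to be tested. All mice were wild-type BALB/c. They were sensitised with 300 μg of anti-TNP IgE and then given 10 μg of the antigen TNP-OVA into the ear, an allergen model called IgE-mediated chronic allergic inflammation (IgE-CAI), and cells were sorted on day 5 from the lesion. The other 6 libraries were classical monocytes (Ly6ChiPD-L2lo) and resident-like macrophages (Ly6CloPD-L2lo) of the same lesions. Monocyte-macrophage lineage cells were gated as CD45+, CD11b+ and F4/80+ cells without Ly6G and Siglec-F. Early and late CMDMs are thus sorted windows of a continuous marker rather than pure cell types, and the number of cells lysed per library varied widely in the study's methods. No source used here ties a library to an animal, so the p-values measure the spread between libraries.

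When Ly6Chi monocytes enter inflamed tissue they lose Ly6C and take on macrophage features such as scavenger receptors, lysosomal enzymes and complement components. In type 2 inflammation, interleukin-4 and interleukin-13 also drive genes known as alternative activation genes, among them PD-L2 itself. Macrophages of this kind engulf dying cells, a process called efferocytosis, which needs receptors, bridging molecules that bind phosphatidylserine, lysosomal digestion and the export of the lipid taken up.

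Total counts were between 15396187 and 15487385 in early CMDM libraries and between 12537178 and 16084234 in late CMDM libraries, and a count of 0 allows a level of up to 0.187 to 0.239 CPM (3 counts), a limit set by counting error alone. Levels are given as CPM, counts scaled to library size with TMM normalisation, in the order of replicates 1, 2 and 3, and differences as the log2 fold change of late over early CMDMs from edgeR's quasi-likelihood test with its standard error (SE) and Benjamini-Hochberg adjusted p-value. A gene was called at an adjusted p-value under 0.05. CPM does not account for gene length, so that levels of different genes are not compared.

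The genes behind the sort were read first. *Ly6c2* (chromosome 15, 75108158 to 75111970 of GRCm38), which encodes Ly6C, had 53.6, 44.1 and 50.2 CPM in early CMDMs and 22.0, 18.8 and 16.6 CPM in late CMDMs. Every late library was below every early one, by a log2 fold change of -1.37 (SE 0.16, adjusted p = 7.64e-06). *Ly6c1*, a paralog with which *Ly6c2* may exchange reads in the counting, had 163, 136 and 120 CPM in early and 30.7, 28.0 and 30.4 CPM in late CMDMs (log2 fold change -2.23, SE 0.19, adjusted p = 5.18e-07). Scaled by leukocyte genes, a scale explained with the marker lists, the differences were -2.25 and -3.14. *Adgre1* (chromosome 17, 57358691 to 57483527), the gene of F4/80, had 84.5, 70.1 and 106 CPM in early and 214, 198 and 192 CPM in late CMDMs (log2 fold change 1.21, SE 0.14, adjusted p = 6.20e-06). The direction of the Ly6C genes is that of the sort, whereas F4/80 was part of the gate that all fractions shared. PD-L2 was likewise gated high in both fractions, and *Pdcd1lg2*, which encodes it, had 21.3, 20.1 and 22.7 CPM in early and 32.3, 33.4 and 30.8 CPM in late CMDMs (log2 fold change 0.59, SE 0.13, adjusted p = 0.00227), but it lay at -0.28 when scaled by leukocyte genes and was not called. *Cd68* and *Csf1r*, the gene of the receptor for macrophage colony-stimulating factor, were higher in late CMDMs by 1.22 and 1.14 on the log2 scale. *Fcgr1*, the gene of CD64, had 52.8, 34.3 and 63.6 CPM in early and 78.0, 64.2 and 75.0 CPM in late CMDMs and was not called (log2 fold change 0.53, adjusted p = 0.113; scaled by leukocyte genes -0.31), although the groups did not overlap. With a fit of the 6 libraries alone it was called (adjusted p = 0.0428). *Ly6g* had 0 counts in all 6 libraries and *Siglecf* at most 0.608 CPM.

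**Figure D1:**
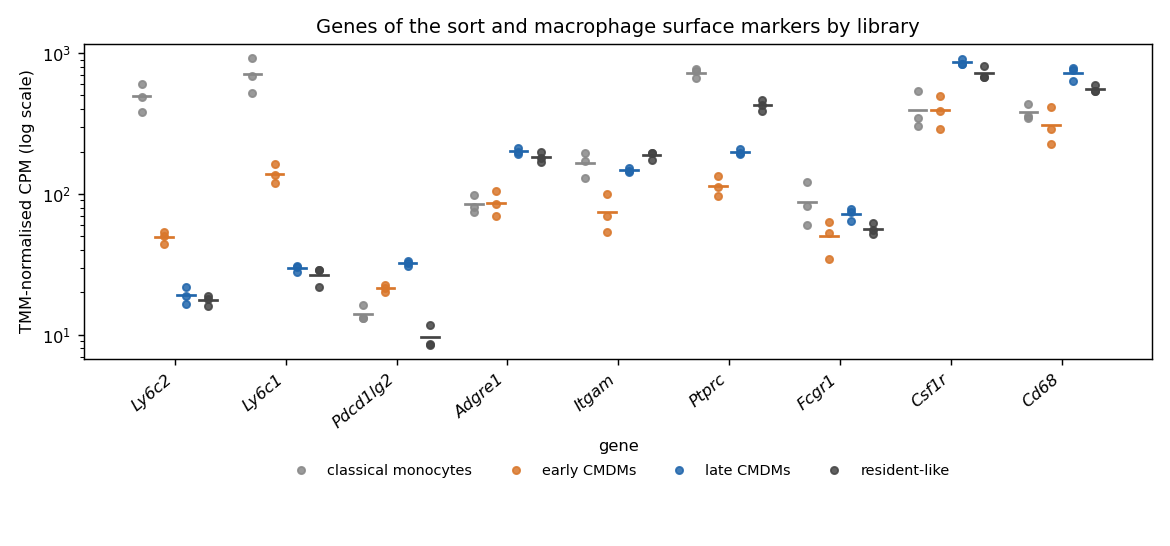
TMM-normalised CPM on a log axis of genes of the sort and of macrophage surface markers, with 1 point per library and a bar at the mean of the 3 libraries of each of the 4 fractions. *Ly6c2* lay between 44.1 and 53.6 CPM in early CMDMs and between 16.6 and 22.0 CPM in late CMDMs, while *Adgre1* lay between 70.1 and 106 CPM in early and between 192 and 214 CPM in late CMDMs.

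The early and late libraries also differed in RNA of other cells and in the level of genes widely used by leukocytes, and this touches every gene group that follows. A list of 16 pan-leukocyte genes, such as *Ptprc*, the gene of CD45, summed to 2310, 1944 and 3196 CPM in early CMDMs and to 4858, 4302 and 5014 CPM in late CMDMs. Of these genes 15 were called higher in late CMDMs and none lower, with a median log2 fold change of 0.92. The list also holds *Spi1*, *Tyrobp* and *Fcer1g*. It summed to between 6910 and 7220 CPM in classical monocytes and between 6410 and 6610 CPM in resident-like macrophages. A change of these genes with the state of the macrophage was not tested. *Ptprc* had 112, 96.8 and 133 CPM in early and 210, 194 and 193 CPM in late CMDMs (log2 fold change 0.80, SE 0.12, adjusted p = 8.19e-05; scaled by these genes -0.06). In contrast, 18 keratinocyte genes summed to 30640, 35200 and 22290 CPM in early CMDMs and to 4219, 5073 and 4372 CPM in late CMDMs, and 16 fibroblast genes to 5065, 4917 and 3612 CPM and to 640, 625 and 617 CPM. All 18 and all 16 were called lower in late CMDMs, with medians of -2.38 and -2.70 on the log2 scale. *Krt10*, a keratin of the upper epidermis, had 11680, 13870 and 8202 CPM in early against 1095, 1187 and 1078 CPM in late CMDMs. *Col3a1*, a fibrillar collagen, had 1277, 1213 and 958 CPM against 129, 144 and 132 CPM. The keratinocyte sum in classical monocytes and resident-like macrophages was at the late CMDM level, between 2480 and 5350 CPM, whereas the fibroblast sum was as high in classical monocytes as in early CMDMs, between 3920 and 6840 CPM. Early CMDM replicate 3 held the least keratinocyte and the most leukocyte RNA of its group, and without it 3155 genes were called higher and 3823 lower. Lists of other cells were mixed, with 7 of 12 dendritic and Langerhans cell genes called higher and 2 lower, 3 of 7 neutrophil genes higher and 2 lower, 1 of 16 T, NK and innate lymphoid cell genes higher and 2 lower, and none of 11 mast cell and basophil genes called. In bulk RNA, fewer cells of a type and less RNA per cell cannot be told apart.

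**Figure D2:**
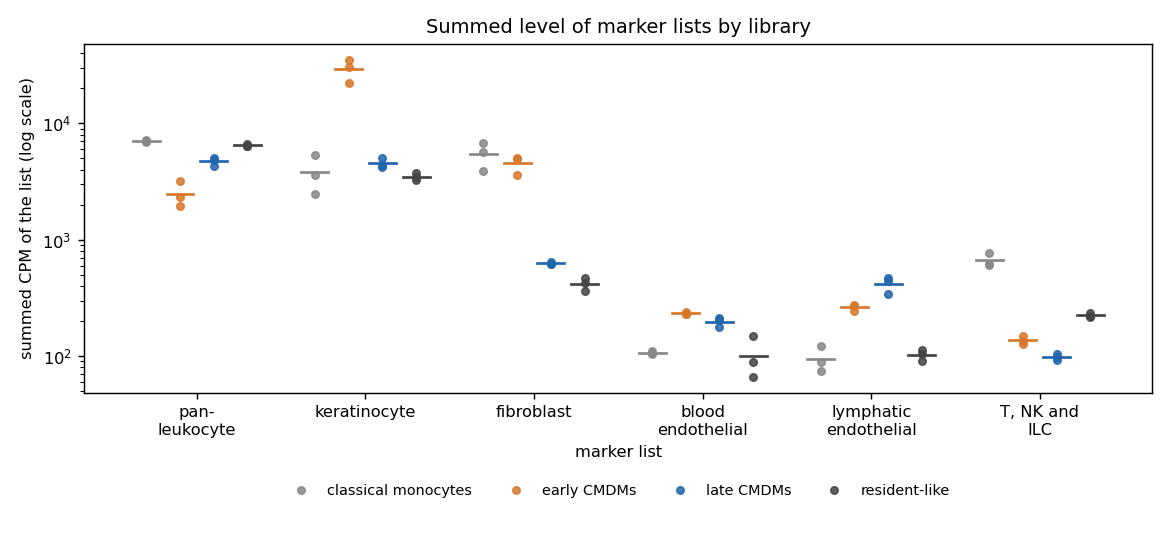
Summed CPM on a log axis of 6 marker lists, with 1 point per library and a bar at the mean of each fraction. Keratinocyte genes summed to 22290 CPM or more in each early CMDM library and to 5073 CPM or less in each late CMDM library, while the pan-leukocyte sum was 3196 CPM or less in early and 4302 CPM or more in late CMDMs.

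For this reason the counts of each list are given on a pair of scales, and single genes on the TMM scale unless the other is named. On the TMM scale 7045 genes were called, or 31.9% of those tested. In late CMDMs 3174 genes (14.4%) were higher and 3871 (17.5%) were lower, and the median gene lay at 0.02 on the log2 scale. Of the higher genes 3106, and of the lower genes 3847, had no overlap between the 3 early and the 3 late libraries. Called genes tend to be separated by selection, and the share over all genes tested is not given. These counts are therefore no further support, and neither is a lack of overlap in single called genes below. When the libraries were instead scaled to the geometric mean of the 16 pan-leukocyte genes, here the leukocyte scale, the median gene moved to -0.85, 207 genes (0.936%) were called higher and 15088 (68.2%) lower. All 3871 genes lower on the TMM scale were also called lower on the leukocyte scale, and all 207 genes higher on the leukocyte scale were also higher on the TMM scale. The change of scale moves all genes down by a similar amount, so this nesting follows from the scaling. A fall on both scales is therefore no second check of a fall on the TMM scale. The counts of each list below are to be read against these shares of all genes tested. A share lower on the leukocyte scale that is near or below 68.2% is no fall particular to a list. The remaining genes higher on the TMM scale comprised 2242 not called and 725 called lower on the leukocyte scale. Leaving keratin, collagen and all keratinocyte and fibroblast list genes out of the table, an alternative added with the values known, gave 3161 higher and 3820 lower genes on the TMM scale. This leaves other RNA of those cells in the table, and the part of cell mixture in the differences was not tested.

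**Figure D3:**
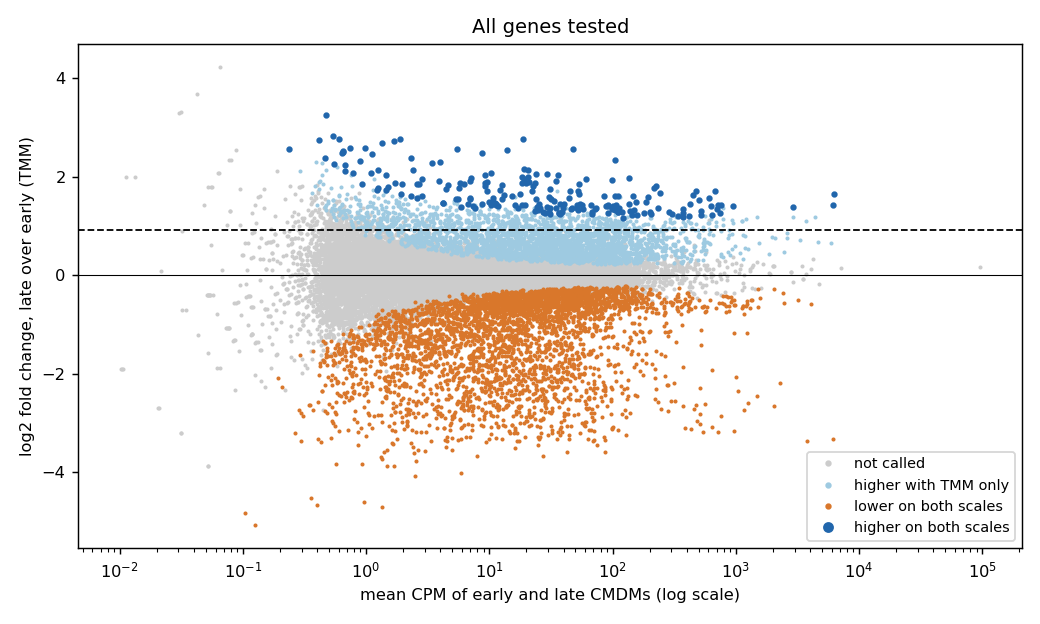
Log2 fold change of late over early CMDMs on the TMM scale for each gene tested, against the mean CPM of both fractions on a log axis. The dashed line marks 0.92, the median of the pan-leukocyte genes, and the 207 genes higher on both scales lie above it.

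A list of tissue macrophage genes had the highest median among the macrophage lists, 1.39 on the TMM scale and 0.54 on the leukocyte scale. It summed to between 5240 and 8890 CPM in early and between 16400 and 18100 CPM in late CMDMs. In the resident-like fraction the sum was between 7260 and 7720 CPM, within the early range and below late CMDMs. The sum is weighted by its highest members, such as *Selenop*, with means of 8934 CPM in late CMDMs and 2615 CPM in the resident-like fraction. Single members differed. In early CMDMs, late CMDMs and the resident-like fraction the means were 13.8, 81.3 and 56.0 CPM for *Cd209b* and 4.81, 32.6 and 4.91 CPM for *Cd209f*. The sum thus gives no direction for single genes. Of 28 members tested, 27 were called higher and none lower on the TMM scale, and 19 were called higher on both scales. *Cd209f* (chromosome 8, 4102787 to 4105835), a C-type lectin of the DC-SIGN family, had 5.44, 5.69 and 3.29 CPM in early and 34.6, 45.6 and 17.5 CPM in late CMDMs. The difference on the log2 scale was 2.76 (SE 0.37, adjusted p = 7.62e-05) on the TMM scale and 1.86 on the leukocyte scale. Late replicate 3 was the lowest of its group. *Cd209b* (chromosome 8, 3917655 to 3926844) had 15.03, 14.61 and 11.78 CPM in early and 95.8, 99.2 and 49.0 CPM in late CMDMs (log2 fold change 2.56, SE 0.24, adjusted p = 3.61e-06; leukocyte scale 1.67, adjusted p = 7.98e-05), and *Cd209g* was higher by 2.49 and 1.59. The *Cd209* genes are paralogs in a cluster, so that their reads could be split between them. *Lyve1* (chromosome 7, 110850607 to 110863239), a hyaluronan receptor of perivascular macrophages and lymphatic vessels, had 11.7, 13.3 and 17.0 CPM in early and 58.7, 77.8 and 36.5 CPM in late CMDMs (log2 fold change 2.04, SE 0.26, adjusted p = 3.35e-05; leukocyte scale 1.20, adjusted p = 0.000497). *Selenop*, which encodes a secreted selenium carrier, had 3405, 2337 and 4290 CPM in early and 9655, 8157 and 8991 CPM in late CMDMs (log2 fold change 1.42, SE 0.18, adjusted p = 2.00e-05; leukocyte scale 0.59, adjusted p = 0.00332).

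The lymphatic endothelial list, which includes *Lyve1* itself, was mostly higher too, with members between -3.13 and 2.04 on the log2 scale. Its counts and sum are therefore not independent of *Lyve1*. Of its 10 members 7 were called higher in late CMDMs and 2 lower, and 6 were higher on both scales, with a median of 1.65 on the TMM scale. They included *Prox1*, the master transcription factor of lymphatic endothelium, at 1.89 on the log2 scale, and the lymphatic chemokine gene *Ccl21a*, which had 36.9, 37.0 and 49.1 CPM in early and 182, 186 and 105 CPM in late CMDMs (log2 fold change 1.94, SE 0.22, adjusted p = 1.68e-05). *Ccl21a* has near-identical copies with which it could share reads. The summed list was 245, 274 and 270 CPM in early and 444, 467 and 341 CPM in late CMDMs, lowest in late replicate 3, the library that was also lowest in *Cd209f*, *Cd209b* and *Lyve1*. Without that library the log2 fold changes of *Cd209f*, *Lyve1* and *Ccl21a* were 3.06, 2.29 and 2.17. Blood endothelial genes did not follow, with 5 of 12 called lower and none higher. The part of lymphatic RNA in the difference of *Lyve1* was not tested.

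Chemokines of the CC class were higher in late CMDMs. Of 12 genes 11 were called higher and none lower on the TMM scale, 6 of them on both scales, with medians of 1.31 and 0.48. *Ccl22* (chromosome 8, 94745590 to 94751699) had 4.27, 3.48 and 4.43 CPM in early and 20.7, 24.7 and 25.4 CPM in late CMDMs (log2 fold change 2.54, SE 0.23, adjusted p = 7.00e-07; leukocyte scale 1.69, adjusted p = 2.17e-06). *Ccl17*, which like *Ccl22* encodes a ligand of CCR4 and is induced by interleukin-4, had 1.36, 1.39 and 2.03 CPM in early and 8.44, 12.4 and 7.35 CPM in late CMDMs (log2 fold change 2.56, SE 0.54, adjusted p = 0.00284; leukocyte scale 1.74, adjusted p = 0.0174). The mean levels of *Ccl22* and *Ccl17* in the resident-like fraction, 22.7 and 7.77 CPM, were close to those of late CMDMs. Dendritic cells express both genes too. The 12 dendritic and Langerhans cell genes, of which 7 were called higher and 2 lower, summed to between 169 and 178 CPM in early and between 233 and 333 CPM in late CMDMs. Among them *Ccr7*, the receptor gene of migrating dendritic cells, had 6.68, 6.07 and 9.18 CPM in early and 29.1, 28.9 and 29.6 CPM in late CMDMs (log2 fold change 1.997, adjusted p = 1.91e-07; leukocyte scale 1.16, adjusted p = 7.67e-06). *Cd209a* and *Siglech* were higher by 1.42 and 1.44, and by 0.54 and 0.58 on the leukocyte scale. In contrast, *Cd207*, of the same list, had 58.7, 75.9 and 58.4 CPM in early and 37.4, 42.9 and 37.2 CPM in late CMDMs. It was called lower, with a log2 fold change of -0.72 (SE 0.17, adjusted p = 0.00335; leukocyte scale -1.62). The part of dendritic cell RNA in *Ccl17* and *Ccl22* was not tested. *Ccl8* (chromosome 11, 82115185 to 82116799), a ligand of CCR8 in mice, had the largest rise in mean CPM of all genes called, from 2721, 2094 and 4169 CPM to 9067, 8202 and 11040 CPM (log2 fold change 1.66, SE 0.20, adjusted p = 1.75e-05; leukocyte scale 0.84, adjusted p = 0.000152). Its mean in classical monocytes and in resident-like macrophages was 635 and 738 CPM. The monocyte attractant *Ccl12* was higher by 1.95 (SE 0.23, adjusted p = 2.02e-05), and by 1.09 on the leukocyte scale. *Ccl5* had 28.5, 14.8 and 21.2 CPM in early and 29.8, 18.8 and 19.7 CPM in late CMDMs and did not pass the test (0.08, adjusted p = 0.884), but it was called lower on the leukocyte scale (-0.79, adjusted p = 0.0288).

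Alternative activation genes rose in part. On the TMM scale 14 of 24 members were called higher and 2 lower, and 9 were higher on both scales, with medians of 1.12 and 0.29. *Mrc1* (chromosome 2, 14229392 to 14332057), the gene of the mannose receptor CD206, had 465, 415 and 668 CPM in early and 1337, 1310 and 1459 CPM in late CMDMs (log2 fold change 1.41, SE 0.19, adjusted p = 3.83e-05). *Clec10a*, a galactose-type lectin gene, had 108, 89.5 and 95.8 CPM against 386, 399 and 224 CPM (log2 fold change 1.78, SE 0.17, adjusted p = 1.73e-06). On the leukocyte scale they were higher by 0.57 and 0.91, and both were called. *Il10*, which encodes an anti-inflammatory cytokine, had 19.5, 19.5 and 21.5 CPM in early and 61.3, 49.8 and 53.1 CPM in late CMDMs (log2 fold change 1.44, SE 0.18, adjusted p = 1.87e-05; leukocyte scale 0.56, adjusted p = 0.0132).

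The textbook pair *Arg1* and *Retnla* gave results that depended on the libraries in the fit. The main fit estimates the spread of a gene from all 12 libraries, also from fractions outside the comparison. In classical monocytes *Arg1* had 121, 108 and 388 CPM, and in resident-like macrophages *Retnla* had 533, 2272 and 770 CPM. *Arg1*, the gene of arginase 1, had 320, 329 and 492 CPM in early and 777, 746 and 977 CPM in late CMDMs. The difference of 1.13 on the log2 scale (SE 0.45, adjusted p = 0.0805) did not pass the test although the groups did not overlap. In a fit of the 6 libraries alone the adjusted p was 0.000458 at a log2 fold change of 1.14, and with a replicate block it was 0.00429 at 1.16. *Retnla*, which encodes the secreted protein RELMα, had 470, 411 and 440 CPM in early and 1112, 1543 and 738 CPM in late CMDMs (log2 fold change 1.36, SE 0.46, adjusted p = 0.0461). It was no longer called without early replicate 1, 2 or 3 or without late replicate 1 or 2, where the log2 fold change was 1.40, 1.31, 1.36, 1.37 and 1.07. *Flt1*, a receptor gene of the vascular endothelial growth factor family counted in this list, fell by 2.14 on the log2 scale.

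Efferocytosis receptors split. Of 18 tested 11 were called higher and 3 lower on the TMM scale, and 3 were higher on both scales, with a median of 0.52 on the TMM scale and -0.35 on the leukocyte scale. *Stab1* (chromosome 14, 31139013 to 31168641), a scavenger receptor that binds phosphatidylserine, had 60.5, 48.7 and 106 CPM in early and 209, 192 and 259 CPM in late CMDMs (log2 fold change 1.62, SE 0.26, adjusted p = 0.000351; leukocyte scale 0.81, adjusted p = 0.000313). The TAM receptor tyrosine kinases, which bind dying cells through Gas6 and protein S, went in opposite directions. *Mertk* (chromosome 2, 128698956 to 128802894) had 11.3, 6.83 and 16.8 CPM in early and 28.6, 25.2 and 27.9 CPM in late CMDMs (log2 fold change 1.22, SE 0.30, adjusted p = 0.00586; leukocyte scale 0.42, adjusted p = 0.110). *Axl* had 43.1, 37.8 and 31.5 CPM in early and 10.99, 13.68 and 9.64 CPM in late CMDMs (log2 fold change -1.71, SE 0.24, adjusted p = 7.25e-05). *Tyro3* had 20.5, 26.7 and 20.6 CPM against 3.50, 7.11 and 4.11 CPM (log2 fold change -2.18, SE 0.27, adjusted p = 1.70e-05). On the leukocyte scale *Axl* and *Tyro3* were lower by log2 fold changes of -2.60 and -3.08. In all 3 kinase genes the early and late libraries stood apart. The keratinocyte and fibroblast sums were higher in the same early libraries, and their part in the levels of *Axl* and *Tyro3* was not tested. *Trem2*, a lipid-sensing receptor gene, was higher by 1.28 (SE 0.24, adjusted p = 0.000990) on the TMM scale and by 0.45 (adjusted p = 0.0285) on the leukocyte scale, and *Timd4*, the gene of the phosphatidylserine receptor TIM-4, by 1.46 and 0.60.

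Among the bridging molecules the 3 chains of complement C1q were higher on both scales. *C1qa* (chromosome 4, 136895917 to 136898803) had 285, 252 and 403 CPM in early and 1090, 1060 and 947 CPM in late CMDMs (log2 fold change 1.72, SE 0.19, adjusted p = 8.30e-06; leukocyte scale 0.88, adjusted p = 8.80e-05), and *C1qb* and *C1qc* were higher by 1.52 and 1.72. *Gas6* and *Pros1*, which encode the TAM ligands, were higher by 0.63 and 0.75 on the TMM scale, below the median of the pan-leukocyte genes, and their signs turned on the leukocyte scale, to -0.25 and -0.14. *Mfge8*, another phosphatidylserine bridge, had 85.3, 90.8 and 78.8 CPM in early and 63.8, 72.6 and 66.5 CPM in late CMDMs and was not called (log2 fold change -0.33, SE 0.13, adjusted p = 0.0579). It was called lower on the leukocyte scale (adjusted p = 8.15e-06) and, without early replicate 3, at -0.38 on the TMM scale (adjusted p = 0.0431). *Thbs1*, the gene of thrombospondin 1, was lower by a log2 fold change of -0.78 (SE 0.19, adjusted p = 0.00476). Of 30 genes of the engulfment machinery 15 were called higher and 2 lower on the TMM scale, but 1 and 19 on the leukocyte scale. The gene higher on both was *Pik3cg*, a catalytic subunit of phosphoinositide 3-kinase, at 1.43 on the TMM scale.

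Complement genes other than C1q separated by kind. Of the 20 genes of the list 10 were called higher and 6 lower on the TMM scale, and 7 and 6 of them were called in the same direction on both scales. *Vsig4*, the gene of a macrophage complement receptor, was higher by 2.59 on the log2 scale (SE 0.50). It had 0.186, 0.379 and 0.0633 CPM in early and 0.876, 1.88 and 1.08 CPM in late CMDMs. With at most 6 counts in an early library, its early level was near the limit set by depth. The genes lower were mostly classical pathway proteases and their inhibitors, such as *Serping1*, which encodes the C1 inhibitor and had 129, 130 and 78.9 CPM in early and 16.8, 17.9 and 17.4 CPM in late CMDMs (log2 fold change -2.69, SE 0.27, adjusted p = 6.69e-06). *C1s1* was lower by a log2 fold change of -2.68 and *Cd55*, the gene of a membrane regulator, of -2.30. The mean of *Serping1* and *C1s1* in classical monocytes was 165 and 39.4 CPM, and the fibroblast sum was likewise high in that fraction. Its part in these differences was not tested.

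Lysosomal genes were higher in late CMDMs on the TMM scale and centred near 0 on the leukocyte scale. Of 48 hydrolases and membrane proteins 42 were called higher and none lower on the TMM scale, with a median of 0.87, and 4 higher and 8 lower on the leukocyte scale, with a median of 0.01. *Ctsl* (chromosome 13, 64359337 to 64370890), the gene of cathepsin L, had 1593, 1212 and 2075 CPM in early and 4137, 3592 and 4976 CPM in late CMDMs (log2 fold change 1.38, SE 0.21, adjusted p = 0.000117; leukocyte scale 0.54, adjusted p = 0.00975). *Hexa*, *Arsb* and *Cd68* were also higher on both scales. *Ctsb*, the gene of cathepsin B, had 2635, 1938 and 3448 CPM against 6224, 5382 and 6688 CPM (log2 fold change 1.19, SE 0.17, adjusted p = 6.71e-05), and at 0.35 it missed the threshold on the leukocyte scale (adjusted p = 0.0549). Of the 17 V-ATPase subunits, which acidify the lysosome, 15 were called higher and none lower on the TMM scale, with a median of 0.60, and 1 higher and 5 lower on the leukocyte scale. The subunit higher on both was *Atp6v0d2* (chromosome 4, 19876841 to 19922605), a macrophage and osteoclast isoform, with 27.7, 14.6 and 31.8 CPM in early and 78.1, 57.9 and 107 CPM in late CMDMs (log2 fold change 1.71, SE 0.28, adjusted p = 0.000472). *Atp6v0c*, another subunit of the membrane sector, was higher by 0.84 on the TMM scale and at -0.01 on the leukocyte scale.

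Many lysosomal promoters hold an E-box that is bound by TFEB and its relatives, among which *Tfec* was one of the transcription factor genes with the largest rise. *Tfec* had 15.3, 12.1 and 24.7 CPM in early and 44.3, 42.1 and 47.5 CPM in late CMDMs (log2 fold change 1.36, SE 0.23, adjusted p = 0.000418; leukocyte scale 0.54, adjusted p = 0.0149). The 8-letter palindromic E-box TCACGTGA was searched in RefSeq promoters of GRCm38.p6, from 250 bases before to 50 bases after each start, and because it equals its own reverse complement both strands were covered by 1 search. It occurred in 5 of the 39 lysosomal genes with a promoter in the table (12.8%) and in 3 of 12 V-ATPase genes (25%), against 1.12% of all 27025 genes with a promoter and 1.8% of the 13629 tested genes with one. All 8 genes were called higher in late CMDMs on the TMM scale, as were 42 of the 48 and 15 of the 17 members of their lists, whereas on the leukocyte scale none of the 8 was higher, 2 were lower and 6 were not called. Of the 245 tested genes with the motif, 69 (28.2%) were called higher and 31 (12.7%) lower, against 16.7% and 18.2% of all tested genes with a promoter. The following stretches upstream of the start of 4 of these genes, on the strand of the gene, show the motif in capitals, at chr7:142387893-142387952 (minus strand) for *Ctsd*, chr2:164833734-164833772 (plus strand) for *Ctsa*, chr8:3500447-3500506 (plus strand) for *Mcoln1* and chr16:44139358-44139417 (minus strand) for *Atp6v1a*.
Ctsd: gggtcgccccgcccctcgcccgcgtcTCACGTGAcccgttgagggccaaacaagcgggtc
Ctsa: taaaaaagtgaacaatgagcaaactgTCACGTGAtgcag
Mcoln1: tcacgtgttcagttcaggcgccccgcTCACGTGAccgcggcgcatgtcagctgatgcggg
Atp6v1a: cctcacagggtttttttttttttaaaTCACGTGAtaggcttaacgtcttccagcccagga
These encode cathepsin D, cathepsin A, the lysosomal calcium channel mucolipin 1 and the catalytic subunit A of the V-ATPase, and their log2 fold changes were 0.89, 0.89, 0.53 and 0.70, below the pan-leukocyte median of 0.92. On the leukocyte scale they lay at 0.03, 0.04, -0.34 and -0.17 and were not called. A match of letters is a description and does not show that a factor binds there.

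Iron and haem genes were higher in 10 of 14 cases and lower in none on the TMM scale, with a median of 0.72, and 2 were higher on both scales. *Hmox1* (chromosome 8, 75093621 to 75100589), the gene of haem oxygenase 1, had 383, 315 and 480 CPM in early and 1083, 1022 and 1046 CPM in late CMDMs (log2 fold change 1.42, SE 0.14, adjusted p = 1.32e-06; leukocyte scale 0.57, adjusted p = 0.00189). *Cd163*, the haemoglobin-haptoglobin scavenger receptor gene, had 353, 308 and 538 CPM against 844, 925 and 1275 CPM (log2 fold change 1.34, SE 0.19, adjusted p = 5.12e-05; leukocyte scale 0.51, adjusted p = 0.00754). Both genes act in the clearance of haemoglobin, and neither overlapped between fractions. The ferritin genes *Ftl1* and *Fth1* were higher by 1.10 and 0.67 on the TMM scale, and on the leukocyte scale they lay at 0.25 and -0.18 and were not called.

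Lipid genes went both ways. Of 20 genes of lipid uptake and storage 8 were called higher and 5 lower on the TMM scale, with a median of 0.10. On the leukocyte scale 1 was higher and 12 lower, a share lower below the 68.2% of all genes tested. *Plin2*, the gene of a lipid droplet coat protein, was higher by 0.96 (SE 0.14, adjusted p = 7.62e-05) on the TMM scale but lay at 0.11 on the leukocyte scale. *Fabp4* (chromosome 3, 10204088 to 10208576), the gene of a fatty acid-binding protein of adipocytes, capillaries and macrophages, had 102, 111 and 113 CPM in early and 17.8, 18.4 and 22.5 CPM in late CMDMs (log2 fold change -2.47, SE 0.46, adjusted p = 0.00201). *Acsl1*, which encodes an acyl-CoA synthetase, had 117, 123 and 92.5 CPM in early and 33.7, 26.8 and 29.9 CPM in late CMDMs (log2 fold change -1.88, SE 0.12, adjusted p = 6.31e-08), and *Vldlr*, a lipoprotein receptor gene, was lower by a log2 fold change of -1.85. Late libraries lay below early ones in each of these 3 genes. Blood endothelial genes were also lower in part, as given above, and so were 3 of 9 genes of the melanocyte, Schwann cell, adipocyte and muscle list, against 1 higher, and their part in the fall of *Fabp4* was not tested.

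On the side of lipid export, 12 of 25 genes were called higher and 2 lower on the TMM scale, and 1 and 12 on the leukocyte scale. *Pltp*, the gene of the phospholipid transfer protein, was higher on both, with 456, 320 and 541 CPM in early and 1200, 990 and 956 CPM in late CMDMs (log2 fold change 1.26, SE 0.22, adjusted p = 0.000393; leukocyte scale 0.42, adjusted p = 0.0456). *Apoe*, the gene of a carrier of exported lipid, had 4700, 4325 and 4701 CPM in early and 7546, 7488 and 6491 CPM in late CMDMs (log2 fold change 0.65, SE 0.16, adjusted p = 0.00413), and lay at -0.23 on the leukocyte scale, where it was not called. The cholesterol exporters *Abca1* and *Abcg1* were higher by 1.00 (adjusted p = 0.0191) and 0.89 (adjusted p = 0.00169) on the TMM scale and lay at 0.17 and 0.05 on the leukocyte scale. *Abca1* was no longer called without early replicate 1, early replicate 2 or late replicate 3, where the log2 fold change was 0.96, 0.80 and 0.91. *Lipa*, the gene of lysosomal acid lipase, was higher by 1.02 on the TMM scale. Cholesterol synthesis genes were in contrast lower, 8 of 19 against 1 higher on the TMM scale and 17 against none on the leukocyte scale. *Srebf2*, the gene of their main transcription factor, was lower by a log2 fold change of -0.98 (SE 0.09, adjusted p = 1.05e-06), *Mvk*, the mevalonate kinase gene, of -1.17 and *Hmgcs1* of -0.59. In early CMDMs *Srebf2* had 125, 139 and 116 CPM and *Hmgcs1* 255, 285 and 217 CPM, both, like the keratinocyte sum, highest in replicate 2 and lowest in replicate 3. The part of keratinocyte RNA in these genes was not tested.

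**Figure D4:**
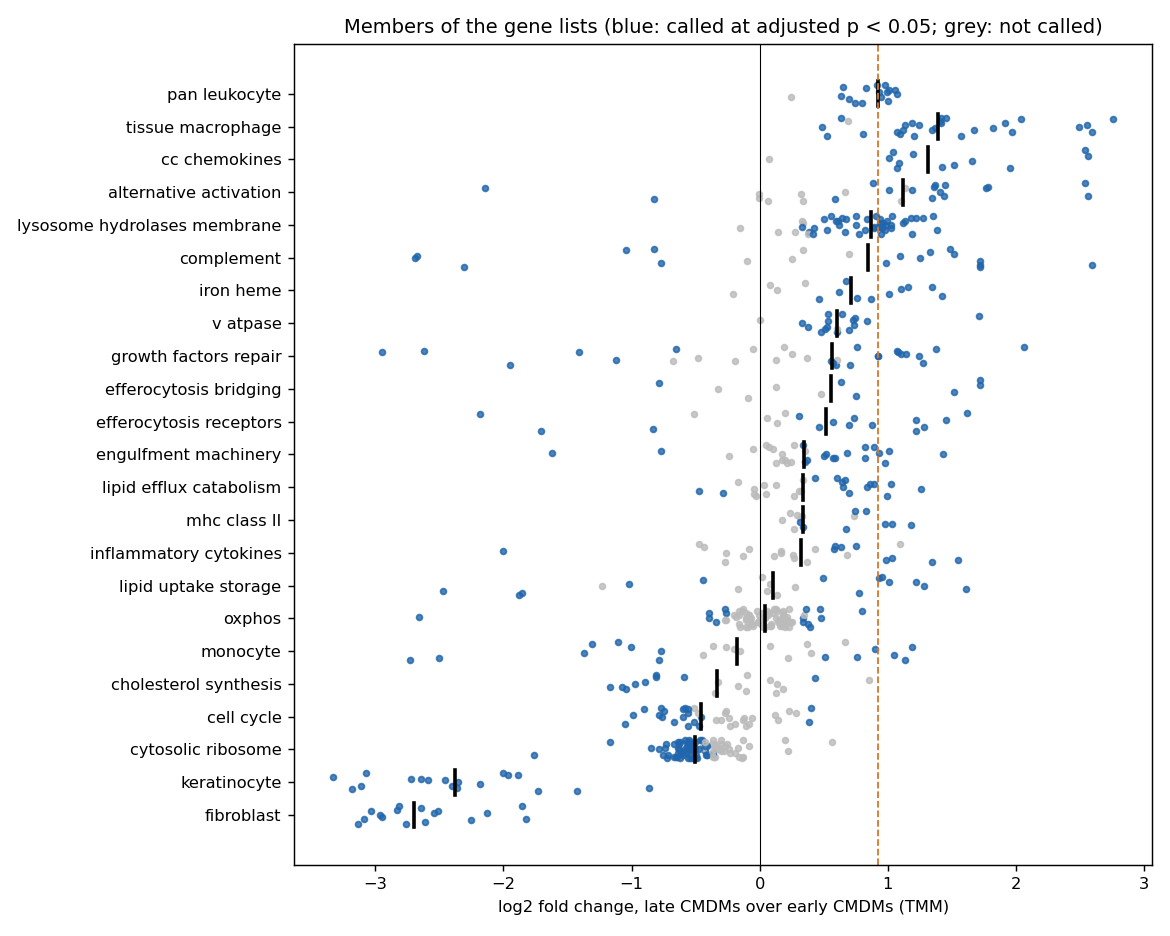
Log2 fold change of late over early CMDMs on the TMM scale for the tested members of 23 gene lists, with 1 point per gene, blue where called and grey where not, and a black bar at the list median. The dashed line marks the pan-leukocyte median of 0.92, which the medians of tissue macrophage genes (1.39), CC chemokines (1.31) and alternative activation genes (1.12) exceed, and which the medians of the other macrophage lists shown do not reach.

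Inflammatory cytokine genes were called higher in 8 of 24 cases and lower in 1 on the TMM scale, with a median of 0.32, and 1 higher and 10 lower on the leukocyte scale, with a median of -0.52. *Tnf* (chromosome 17, 35199381 to 35202007) had 39.3, 35.5 and 47.8 CPM in early and 114, 102 and 95.6 CPM in late CMDMs (log2 fold change 1.35, SE 0.16, adjusted p = 1.07e-05; leukocyte scale 0.49, adjusted p = 0.0130). *Cxcl2*, which encodes a neutrophil attractant, was higher by 1.03 on the TMM scale and lay at 0.17 on the leukocyte scale. *Il6* (chromosome 5, 30013114 to 30019981) was the list's gene called lower, with 83.7, 75.8 and 66.0 CPM in early and 18.8, 19.1 and 18.1 CPM in late CMDMs (log2 fold change -2.01, SE 0.26, adjusted p = 5.65e-05; leukocyte scale -2.91). In the 3 early libraries *Il6* followed the order of the fibroblast sum, 5065, 4917 and 3612 CPM. So it did in classical monocytes, with 60.4, 46.0 and 25.5 CPM beside fibroblast sums of 6842, 5643 and 3916 CPM. The part of fibroblast RNA in *Il6* was not tested.

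Among growth factor and tissue repair genes 15 of 30 were called higher and 6 lower on the TMM scale, and 3 and 6 of these in the same direction on both scales. *Mmp9* (chromosome 2, 164940780 to 164955850), the gene of a gelatinase, had 9.22, 8.60 and 10.0 CPM in early and 36.8, 38.6 and 41.0 CPM in late CMDMs (log2 fold change 2.06, SE 0.12, adjusted p = 4.37e-08; leukocyte scale 1.20, adjusted p = 4.17e-06). It is also a neutrophil gene, and the neutrophil list, which includes *Mmp9* itself among its 3 of 7 genes called higher, against 2 lower, summed to between 84.6 and 95.4 CPM in early and between 153 and 175 CPM in late CMDMs. Another member, *Csf3r*, was higher by 0.93 on the TMM scale and lay at 0.07 on the leukocyte scale, while *Ly6g* had 0 counts. The part of neutrophil RNA in *Mmp9* was not tested. The ligands of the epidermal growth factor receptor were lower in late CMDMs, *Ereg* with 66.3, 93.0 and 53.8 CPM against 10.5, 9.12 and 8.02 CPM (log2 fold change -2.95, SE 0.23, adjusted p = 3.99e-07) and *Areg* with 60.9, 92.0 and 46.4 CPM against 16.2, 19.6 and 15.6 CPM (log2 fold change -1.95, SE 0.24, adjusted p = 3.10e-05), and by -3.89 and -2.90 on the leukocyte scale. Keratinocytes express both ligands, and in the early libraries both followed the order of the keratinocyte sum, highest in replicate 2 and lowest in replicate 3. *Sparc*, a matrix gene of fibroblasts, was lower by a log2 fold change of -2.62, and its mean in classical monocytes was 1133 CPM. The part of keratinocyte and fibroblast RNA in these 3 genes was not tested.

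On the TMM scale 6 of 24 monocyte genes were called higher and 8 lower, and none and 16 on the leukocyte scale. *Ace* had 17.6, 15.1 and 12.8 CPM in early and 2.63, 2.55 and 1.69 CPM in late CMDMs (log2 fold change -2.73, SE 0.37, adjusted p = 8.06e-05), and *Hp*, the haptoglobin gene, was lower by a log2 fold change of -1.31. *S100a9*, an alarmin gene of monocytes, neutrophils and inflamed epidermis, was lower by a log2 fold change of -2.50, and its mean in classical monocytes was 1.30 CPM. *Lyz2* was in contrast higher, by 1.19 on the TMM scale. Of 15 genes of MHC class II presentation 8 were called higher and none lower on the TMM scale, but none and 8 on the leukocyte scale. *Cd74* and *H2-Aa* lay at 0.33 and 0.23 on the TMM scale (adjusted p = 0.0988 and 0.229), where neither was called, and at -0.54 and -0.64 on the leukocyte scale, and *Cd74* was called at 0.46 on the TMM scale without late replicate 3 (adjusted p = 0.0322). The costimulatory gene *Cd86* was higher by 0.83 on the TMM scale and lay at -0.03 on the leukocyte scale. Of 30 interferon-stimulated genes 5 were higher and 1 lower on the TMM scale, with *Oas2* at 1.17, and none and 10 on the leukocyte scale. The share of them higher on the TMM scale was near the 14.4% of all genes tested. On the leukocyte scale the shares lower in the monocyte, MHC class II and interferon-stimulated lists were below the 68.2% of all genes tested.

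Transcription factor genes were called higher in 23 of 50 cases and lower in 5 on the TMM scale, with a median of 0.35. On the leukocyte scale 1 was higher and 30 were lower, with a median of -0.50. This share lower was below the 68.2% of all genes tested. *Tfec* was the only one of them higher on both scales, at the values given above. *Klf2* and *Irf4*, which act in quiescence and in alternative activation, were higher by 1.19 and 1.18 on the TMM scale and lay at 0.33 and 0.30, not called, on the leukocyte scale. *Id3*, an inhibitor of helix-loop-helix factors, had 346, 376 and 278 CPM in early and 98.5, 126 and 119 CPM in late CMDMs (log2 fold change -1.54, SE 0.15, adjusted p = 2.09e-06). The immediate early genes *Fos* and *Fosb* were lower by log2 fold changes of -0.57 and -0.50.

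Housekeeping groups were lower in late CMDMs or centred near 0 on the TMM scale, and nearly all of their genes were called lower on the leukocyte scale. None of 90 cytosolic ribosomal protein genes was higher and 57 were called lower on the TMM scale, with a median of -0.51, and 89 on the leukocyte scale. *Rplp0* had 1780, 1924 and 1458 CPM in early and 758, 790 and 747 CPM in late CMDMs (log2 fold change -1.17, SE 0.11, adjusted p = 1.18e-06). Its early level, like the keratinocyte sum, was highest in replicate 2 and lowest in replicate 3, and the part of that RNA was not tested. Of 37 cell cycle genes 17 were called lower, such as *Cdc20* at -1.06, and 2 higher, *Mki67* at 0.40 (adjusted p = 0.0402) and *Pcna* at 0.38 (adjusted p = 0.00288), which both turned, to -0.46 and -0.50, on the leukocyte scale, where all 37 were called lower. *Mki67* lost its call without any of 5 of the 6 libraries, early replicate 1 or 2 or late replicate 1, 2 or 3, at 0.41, 0.29, 0.45, 0.44 and 0.31. Oxidative phosphorylation genes centred at 0.04, with 8 of 80 higher and 6 lower, against none and 78 on the leukocyte scale with a median of -0.85. Of 24 glycolysis and hypoxia genes 3 were higher and 4 lower, against none and 21 on the leukocyte scale, with *Pfkfb3* at 1.17 (0.32 on the leukocyte scale), *Hilpda* at 0.77 (-0.08 on the leukocyte scale), *Pdk1* at -0.83 and *Egln3* at -2.17.

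Besides genes of these lists, the strongest rises among genes higher on both scales, with at least 5 CPM in late CMDMs and no overlap between the fractions, were in genes of mixed function. *Fxyd2* (chromosome 9, 45399669 to 45410278), which encodes a subunit of the sodium pump, had 39.7, 26.7 and 36.6 CPM in early and 218, 179 and 127 CPM in late CMDMs (log2 fold change 2.35, SE 0.22, adjusted p = 2.82e-06; leukocyte scale 1.49). *Tnfrsf17*, the gene of the plasma cell receptor BCMA, had 1.24, 1.20 and 1.58 CPM against 7.01, 6.99 and 5.93 CPM (log2 fold change 2.30, SE 0.30, adjusted p = 1.98e-05; leukocyte scale 1.46). No library of one fraction reached the other in either gene, which the choice of these genes required. The B and plasma cell list, in which 2 of 6 tested genes were called higher and none lower, summed to between 39.5 and 61.2 CPM in early and between 82.5 and 126 CPM in late CMDMs, and its part in the difference of *Tnfrsf17* was not tested. *Pla2g2d*, a secreted phospholipase gene, was higher by 2.17, *Cacna1a*, a calcium channel gene, by 2.14, *Enpep*, an aminopeptidase gene, by 2.08 and *Mucl1* by 2.07. *Mucl1* had its highest mean in resident-like macrophages, at 262 CPM. Of the 207 genes higher on both scales, 152 had their highest mean in late CMDMs, 43 in resident-like macrophages and 12 in classical monocytes. Early CMDMs could not be highest, since the genes were chosen as higher in late CMDMs. Of all 3174 genes higher on the TMM scale the counts were 1627, 993 and 554. Among the 207 genes the lowest of the 3 late libraries was replicate 3 for 96, replicate 2 for 80 and replicate 1 for 31. Among all 3174 it was replicate 3 for 1109, replicate 2 for 1478 and replicate 1 for 587.

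The largest falls included genes of the epidermis. *Cfd*, the gene of the adipocyte protease adipsin, was lower by a log2 fold change of -4.02 (SE 0.57, adjusted p = 0.000123), with 14.5, 13.2 and 5.63 CPM in early and 0.239, 1.09 and 0.607 CPM in late CMDMs. *Cfap57*, *Krt24*, *Tmprss4* and *Mt4*, of which *Krt24* is a keratin and *Mt4* a metallothionein of stratified epithelium, followed at -3.68, -3.68, -3.60 and -3.60. Of the 1847 genes lower by a log2 fold change of at least 1, 1536 had their highest mean in early CMDMs, 283 in classical monocytes and 28 in resident-like macrophages. Late CMDMs could not be highest, since the genes were chosen as lower in late CMDMs. Of all 3871 lower genes the counts were 3218, 476 and 177. *Krt10*, *Krt2* and *Krt14* were among the 10 called genes with the largest drop in mean CPM.

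**Figure D5:**
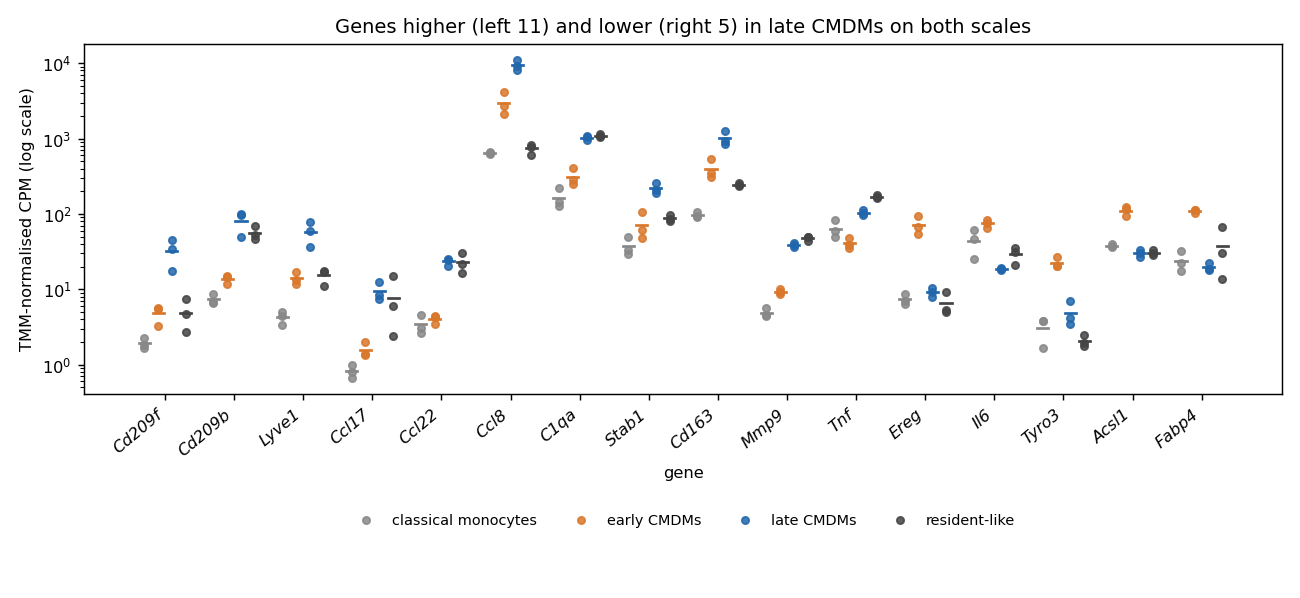
TMM-normalised CPM on a log axis of 11 genes higher and 5 genes lower in late than in early CMDMs on both scales, with 1 point per library and a bar at the mean of each fraction. Early and late points do not overlap in any of these genes, for example 2094 to 4169 against 8202 to 11040 CPM in *Ccl8* and 66.0 to 83.7 against 18.1 to 19.1 CPM in *Il6*. All were picked from called genes, which tend to be separated by selection.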

How the data were processed

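Bulk RNA-seq libraries of 4 sorted fractions were analysed, 3 per fraction, grouped by their labels. The authors trimmed reads with cutadapt 4.1, mapped them to GRCm38 reference RNA with Bowtie2 2.4.5 and counted reads per gene. The deposited values are raw counts per gene symbol, in which paralogs can split reads. All sample columns were used, so 0 columns were left out.

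The main test, in place of the study's TCC, was that of edgeR 4.0.16 (R 4.3.3) with TMM factors, filterByExpr by fraction and robust quasi-likelihood fits of all 12 libraries together. The leukocyte scale replaced TMM by the geometric mean of 16 pan-leukocyte genes. Each SE is the absolute fold change divided by the square root of F. The test was checked on simulated data. Positions come from GENCODE M21, which held 96.8% of tested symbols, and promoters from RefSeq. No pair of replicate libraries was a duplicate, since chi-square per degree of freedom lay between 4.24 and 21.9.

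The gene lists, the comparison and the rule for named genes were chosen with earlier results of these data known. The rule took the sort markers, genes the study names, for each macrophage list the 4 called genes with the largest change and the 2 with the highest mean, the 15 largest rises and falls on both scales without overlap and with at least 5 CPM, the 10 largest rises and falls in CPM, and the 2 highest genes of each list of other cells. Some of them are named here. Other genes named, such as *Prox1* and *Ccl5*, were chosen after their values were seen. Alternatives were RLE, library size only, DEGES in 3 rounds, DESeq2 1.42.0, other filters and thresholds, fits of 6 libraries, a replicate block, dropping genes that hold over 1% of counts and dropping each library.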

Additional observations from a re-analysis of the deposited data

How the results depend on the processing

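On the leukocyte scale 15295 genes were called, 207 higher and 15088 lower, so 1.35% of calls were higher against 45.1% with TMM, and 4 of 24 macrophage lists and 3 of 11 lists of other cells kept a median above 0, against 18 and 7 with TMM. There the log2 fold change turned negative for *Pdcd1lg2* (-0.28), *Fcgr1* (-0.31), *Ptprc* (-0.0557), *Hilpda* (-0.0797), *Apoe* (-0.23), *Gas6* (-0.25), *Pros1* (-0.14), *Atp6v0c* (-0.0145), *Fth1* (-0.18), *Cd74* (-0.54), *H2-Aa* (-0.64), *Cd86* (-0.0293), *Mki67* (-0.46), *Pcna* (-0.50), *Ccl5* (-0.79), *Mcoln1* (-0.34) and *Atp6v1a* (-0.17), while the median gene moved by -0.85. Besides the scaling, the counts moved by over 1.5 times at an adjusted p under 0.01, to 2068 higher genes, and when an absolute log2 fold change of 1 was required, to 2631 genes, 784 higher and 1847 lower. DESeq2 called 6965 genes. Leaving out each library gave between 5167 and 6978 genes, between 2181 and 3155 higher and between 2986 and 3823 lower. *Ccl5*, which was not called, lay between -0.16 and 0.33 when each library was left out. With a replicate block 7565 genes were called, 3472 higher and 4093 lower. Libraries with the same number shared only that number, with correlations of their deviations of 0.02, 0.16 and 0.08, and 5 of the 6 libraries correlated best with their own number, the exception being late replicate 1 (0.05 with early replicate 3), a hint from the data and not the design. The cause of these changes was not tested. Depth limits genes under 0.187 to 0.239 CPM.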
